A study of Mus musculus with 12 samples.

Results

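The 10 genes examined here encode parts of the cyclic AMP (cAMP) and protein kinase A (PKA) system, and they were followed by symbol in RNA from a fast and a slow mouse leg muscle with and without Phf2. They are the phosphodiesterases Pde7a, Pde4b and Pde4d, the PKA catalytic subunits Prkaca and Prkacb, the PKA regulatory subunits Prkar1a and Prkar2a, the PKA inhibitor peptides Pkia and Pkig, and the phosphatase inhibitor Ppp1r1a. All 10 were found among the 34866 gene IDs of the tables. The list was drawn up because Pde7a, Pkia and Ppp1r1a differed between genotypes in these same libraries. The differences of all 10 genes between genotypes are therefore given as a description, without a p-value for each gene. Calls and threshold counts for them describe the list and support nothing.

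In this pathway a hormone such as adrenaline acts on a receptor coupled to the stimulatory G protein, and adenylyl cyclases then make cAMP. The regulatory subunits of PKA bind cAMP and let go of the catalytic subunits, which phosphorylate their targets. Phosphodiesterases break cAMP down, PKA inhibitor peptides bind and block free catalytic subunits, and Ppp1r1a (inhibitor-1), once phosphorylated by PKA, blocks protein phosphatase 1 (PP1), an enzyme that removes phosphates from many PKA targets. In skeletal muscle the pathway is best known for driving glycogen breakdown through phosphorylase kinase.

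The labels name a gastrocnemius, a mostly fast-twitch calf muscle, and a soleus, a slow-twitch postural muscle, of male C57BL/6 mice 4 weeks old. Control (Ctrl) animals had the genotype Phf2 flox/flox;Acta1 Cre-, and knockout (KO) animals had Phf2 flox/flox;Acta1 Cre+, so all groups share the floxed alleles and only the KO carries Cre. The Acta1 promoter drives Cre in skeletal muscle fibres, and the other cells of the tissue, whose RNA is also in a bulk sample, keep Phf2. PHF2 is a histone demethylase family protein with a plant homeodomain, and the stated aim was to learn what it does in skeletal muscle. Each muscle and genotype had 3 libraries, 12 in all. No label states that they are separate animals. The p-values therefore reflect the spread among these samples alone, which may be technical.

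Values are TPM, the share of a library's transcripts scaled for gene length and to the same sum in every library, and so they keep no sequencing depth. The depth of each library is therefore unknown. Phf2 itself, the targeted gene, was measured at 8.24 to 11.4 TPM in Ctrl gastrocnemius against 6.74 to 7.61 TPM in the KO, and at 10.002 to 14.98 TPM in Ctrl soleus against 6.79 to 9.06 TPM in the KO. The KO mean was 72.1% of Ctrl in gastrocnemius and 61.4% in soleus. The tissue labels held up against myosin heavy chains: Myh4 of the fastest fibres was at 9590 to 12236 TPM in the gastrocnemius libraries, and Myh7 of slow fibres was at 1795 to 5717 TPM in soleus against 40.8 to 139.7 TPM in gastrocnemius. Soleus KO 3 stood apart from the other KO soleus libraries, with the lowest Myh7 and with 39.0% of its TPM on mitochondrially encoded genes, where the other soleus libraries had 24.5 to 29.6%. Mitochondrially encoded genes took 22.01 to 24.1% in Ctrl and 18.1 to 20.7% in KO gastrocnemius. In a bulk sample, fewer cells of a type and less RNA per cell cannot be told apart.

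Pde7a encodes a cAMP phosphodiesterase of high affinity for cAMP, Pkia the main PKA inhibitor peptide of muscle, and Ppp1r1a inhibitor-1. In gastrocnemius the KO mean was 46.1% of Ctrl for Pde7a and 54.0% for Pkia, and it was 3.29-fold that of Ctrl for Ppp1r1a. In soleus the corresponding values were 57.1%, 56.5% and 1.34-fold. The 7 other genes differed less, with KO means between 73.8% and 132% of Ctrl in either muscle.

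**Figure D1:**
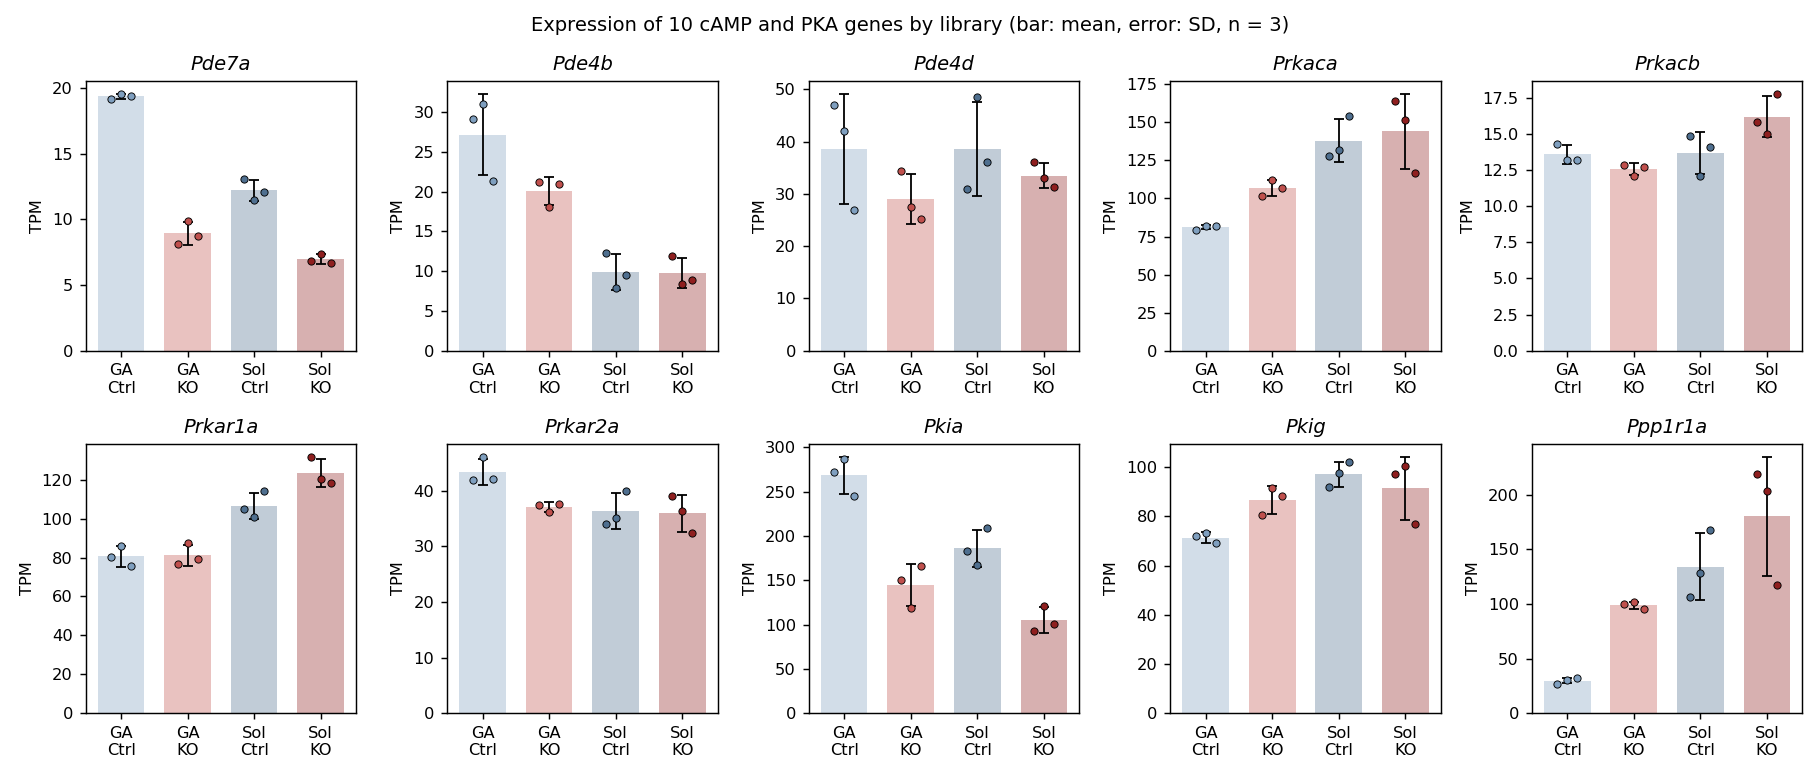
TPM of the 10 genes in each library (points), with the group mean as a bar and the SD of 3 libraries as the error bar, for gastrocnemius (GA) and soleus (Sol) of Ctrl and KO animals. The KO points of Pde7a and Pkia lie below the Ctrl points in both muscles, and those of Ppp1r1a lie above them in gastrocnemius and mix with them in soleus.

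Among the phosphodiesterases, Pde7a (chromosome 3, 19223108 to 19311322, minus strand, mm10) measured 19.2, 19.55 and 19.4 TPM in Ctrl gastrocnemius and 8.13, 9.905 and 8.74 TPM in KO gastrocnemius. In soleus it measured 13.1, 11.5 and 12.1 TPM in Ctrl and 6.84, 7.39 and 6.69 TPM in KO. Every KO library lay below every Ctrl library of its muscle. The mean went from 19.4 ± 0.179 (SD, n = 3) to 8.92 ± 0.902 TPM in gastrocnemius and from 12.2 ± 0.815 to 6.98 ± 0.368 TPM in soleus, which is a log2 difference of -1.04 (SE 0.0841) and of -0.73 (SE 0.107). The groups ranked Ctrl gastrocnemius, Ctrl soleus, KO gastrocnemius and KO soleus from high to low, and no neighbours in that order overlapped. An antisense gene, Gm16093, shares 48 exonic bases with Pde7a and has no row in the tables. The library kit keeps strand, and whether the counting used it is not given in the sources used here.

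Pde4b and Pde4d encode cAMP-specific phosphodiesterases of the Pde4 family, the target of rolipram. Pde4b (chromosome 4, 102087543 to 102607259, plus strand) was at 29.1, 31.0 and 21.4 TPM in Ctrl and 21.2, 18.0 and 20.9 TPM in KO gastrocnemius. The groups did not overlap but nearly touched. Its soleus values were 12.3, 7.85 and 9.56 TPM in Ctrl and 11.9, 8.40 and 8.89 TPM in KO, with full overlap. Pde4d (chromosome 13, 108449948 to 109953461, plus strand), a gene that spans 1503.5 kb, was at 47.1, 42.0 and 26.9 TPM in Ctrl and 34.4, 27.6 and 25.2 TPM in KO gastrocnemius. It was at 30.95, 48.5 and 36.1 TPM in Ctrl and 36.1, 33.0 and 31.3 TPM in KO soleus. The Pde4d groups overlapped in both muscles, and its Ctrl libraries had the largest SD of the 3 phosphodiesterases, at 10.5 TPM in gastrocnemius and 9.01 TPM in soleus.

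TPM is scaled for length, so the RNA of different genes can be added within a library. Summed over the 16 cAMP phosphodiesterase genes of the pathway list, gastrocnemius held 142 ± 21.1 TPM in Ctrl and 111 ± 5.97 TPM in KO, and soleus held 133 ± 4.27 and 111 ± 5.32 TPM. The share of Pde7a in that sum was 13.8 ± 2.22% in Ctrl and 8.10 ± 1.21% in KO gastrocnemius. In soleus it was 9.22 ± 0.664% in Ctrl and 6.29 ± 0.445% in KO. Neither the sum nor the share overlapped between genotypes in either muscle. The gastrocnemius sums nearly touched, at 118.2 TPM in the lowest Ctrl and 117.5 TPM in the highest KO library. The joint share of Pde4b and Pde4d overlapped in both muscles, at 45.8 ± 4.65% and 44.2 ± 2.67% in gastrocnemius and 36.5 ± 4.74% and 38.8 ± 1.895% in soleus. Pde7b is the closest relative of Pde7a, and Pde7a RNA was 2.11 ± 0.160 times that of Pde7b in Ctrl and 1.28 ± 0.223 times in KO gastrocnemius. In soleus that ratio was 0.867 ± 0.0845 in Ctrl and 0.500 ± 0.0374 in KO, again without overlap. The sum, the Pde7a share and this ratio all contain Pde7a, on which the list was chosen, so they are a description only.

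Of the PKA catalytic subunits, Prkaca (chromosome 8, 83972993 to 83996443, plus strand) supplied most of the RNA. It was at 79.6, 81.7 and 82.1 TPM in Ctrl and 102, 112 and 107 TPM in KO gastrocnemius, where every KO library was the higher. The soleus values were 128, 132 and 154 TPM in Ctrl and 164, 152 and 117 TPM in KO. The groups overlapped there, KO 3 being the lowest of the 6 libraries and KO 1 the highest. The log2 difference was 0.39 (SE 0.0615) in gastrocnemius and 0.05 (SE 0.161) in soleus, or 0.20 without soleus KO 3. A processed copy of the gene, Prkaca-ps1, was listed at 0 in all 12 libraries.

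Prkacb (chromosome 3, 146729574 to 146812990, minus strand), the second catalytic subunit, was at 14.3, 13.2 and 13.2 TPM in Ctrl and 12.9, 12.1 and 12.7 TPM in KO gastrocnemius. Soleus Ctrl libraries were at 14.9, 12.1 and 14.1 TPM and soleus KO libraries at 15.8, 14.96 and 17.8 TPM. KO libraries lay just below Ctrl in gastrocnemius and above it in soleus, with log2 differences of -0.11 (SE 0.0709) and 0.23 (SE 0.125). Prkaca made up 85.7 ± 0.792% of the catalytic RNA in Ctrl and 89.5 ± 0.756% in KO gastrocnemius, without overlap, and 90.9 ± 1.18% and 89.7 ± 2.50% in soleus, with overlap.

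The regulatory subunit Prkar1a (chromosome 11, 109649405 to 109669656, plus strand), which forms the type I holoenzyme, was at 80.3, 85.9 and 75.4 TPM in Ctrl and 76.9, 87.2 and 79.4 TPM in KO gastrocnemius, so the groups overlapped. Its soleus libraries were at 104.7, 100.6 and 114 TPM in Ctrl and 132, 120.1 and 118 TPM in KO, and each KO library was above each Ctrl library. Prkar2a (chromosome 9, 108689314 to 108750436, plus strand), of the type II holoenzyme, was at 42.0, 46.1 and 42.05 TPM in Ctrl and 37.5, 36.1 and 37.7 TPM in KO gastrocnemius, with KO lower throughout. It was at 34.0, 35.1 and 40.0 TPM in Ctrl and 39.0, 36.4 and 32.5 TPM in KO soleus, where the groups overlapped. The ratio of Prkar1a to Prkar2a RNA was higher in KO in both muscles without overlap, at 1.86 ± 0.0600 and 2.19 ± 0.196 in gastrocnemius and 2.93 ± 0.130 and 3.44 ± 0.181 in soleus.

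Prkar1a was the only one of the 7 genes with a promoter in the RefSeq table (GRCm38.p6) whose windows, from 250 bases before to 50 after a start site, held the full cAMP response element TGACGTCA on either strand. This is the motif bound by CREB, the transcription factor that PKA phosphorylates. It occurs in 588 of 32851 windows, or 1.79%. The window below lies at chr11:109650699-109650998 on the plus strand, and the motif begins 49 bases before its start site. A second, overlapping Prkar1a window holds the same copy, which there lies after the window's own start site. Capitals mark the motif, and the sequence is shown because this is the motif of the pathway's own transcription factor.
Prkar1a: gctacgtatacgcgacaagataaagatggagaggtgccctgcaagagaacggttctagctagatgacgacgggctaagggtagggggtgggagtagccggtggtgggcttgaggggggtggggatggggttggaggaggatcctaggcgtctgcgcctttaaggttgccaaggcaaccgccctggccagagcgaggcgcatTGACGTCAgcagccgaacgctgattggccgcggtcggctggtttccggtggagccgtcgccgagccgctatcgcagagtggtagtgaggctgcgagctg
The shorter motif TGACG, which is part of the full one, was in windows of 6 of those 7 genes, Pde4b, Pkig, Prkaca, Prkacb, Prkar1a and Prkar2a, or 8 of their 20 windows, and in 23.0% of all genes and 20.8% of all windows. The 7 genes had 20 windows, some of them overlapping, where all 27025 genes had 32851. A gene with more windows has more room for a match, so the shares of genes cannot be compared directly. A match describes the letters only. Prkar1a, which holds the full motif, differed between genotypes by a log2 value of 0.01 (SE 0.0776) in gastrocnemius and 0.21 (SE 0.115) in soleus.

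Among the PKA inhibitors, Pkia (chromosome 3, 7366669 to 7445366, plus strand) was the most abundant of the 10 genes in Ctrl gastrocnemius, at 272, 287.5 and 246 TPM. In KO gastrocnemius it was at 150.1, 119 and 166 TPM. Soleus held 183, 167 and 209 TPM in Ctrl and 93.3, 122 and 101 TPM in KO. The genotypes did not overlap in either muscle, and the log2 difference was -0.89 (SE 0.128) in gastrocnemius and -0.82 (SE 0.148) in soleus. From high to low the groups ranked Ctrl gastrocnemius (269 ± 21.1 TPM), Ctrl soleus (186 ± 20.8 TPM), KO gastrocnemius (145 ± 24.0 TPM) and KO soleus (105 ± 14.7 TPM). The highest KO gastrocnemius library stood just under the lowest Ctrl soleus library, and the KO muscles overlapped.

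Pkig (chromosome 2, 163658386 to 163726158, plus strand) encodes the broadly expressed gamma form of the inhibitor. It was at 71.9, 73.1 and 68.9 TPM in Ctrl and 80.4, 91.3 and 88.0 TPM in KO gastrocnemius, with KO higher throughout. In soleus Pkig measured 91.7, 97.6 and 102 TPM in Ctrl and 97.1, 100.4 and 76.8 TPM in KO, with overlap. Pkia and Pkig thus differed in opposite directions in gastrocnemius, by log2 values of -0.89 and 0.28 (SE 0.0691). Pkia made up 78.9 ± 0.834% of inhibitor RNA in Ctrl and 62.3 ± 5.03% in KO gastrocnemius, and 65.6 ± 2.14% and 53.4 ± 3.98% in soleus.

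Set against the kinase it blocks, inhibitor RNA was 3.59 ± 0.257 times the catalytic subunit RNA in Ctrl and 1.94 ± 0.226 times in KO gastrocnemius. The soleus ratios were 1.87 ± 0.0478 in Ctrl and 1.24 ± 0.155 in KO. The genotypes did not overlap in either muscle, and KO gastrocnemius overlapped Ctrl soleus. Regulatory subunit RNA was 1.35 ± 0.0760 times the catalytic RNA in Ctrl gastrocnemius and 1.02 ± 0.0218 times in KO, without overlap, and 0.969 ± 0.0343 and 1.03 ± 0.105 times in soleus, with overlap. These ratios are taken within a library, so no rescaling of whole libraries moves them, and they contain the genes on which the list was chosen. They describe RNA and carry no information on protein amounts.

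**Figure D2:**
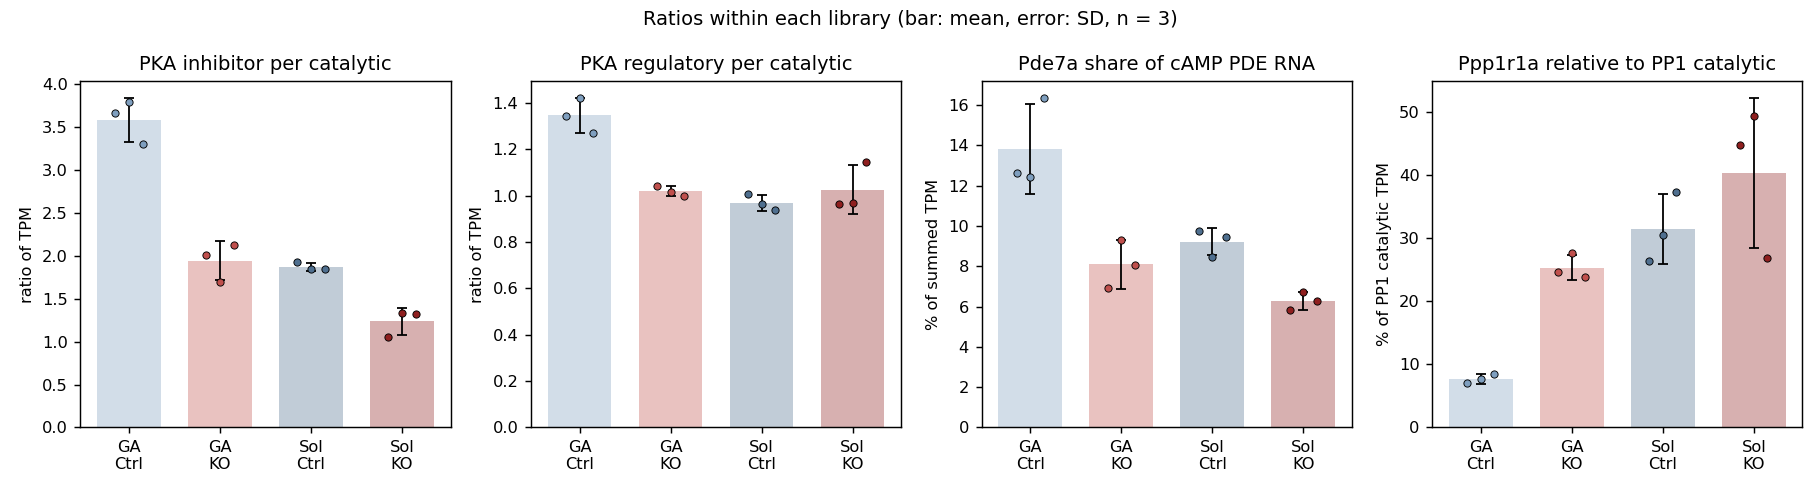
Ratios of summed TPM within each library (points; bar, mean; error bar, SD of 3 libraries): PKA inhibitor to PKA catalytic RNA, PKA regulatory to catalytic RNA, Pde7a as a percentage of cAMP phosphodiesterase RNA, and Ppp1r1a as a percentage of PP1 catalytic RNA. The inhibitor ratio and the Pde7a share are lower in KO in both muscles, while the regulatory ratio and the Ppp1r1a percentage separate the genotypes in gastrocnemius and overlap in soleus.

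Ppp1r1a (chromosome 15, 103530279 to 103538003, minus strand) was at 27.1, 30.9 and 32.2 TPM in Ctrl and 99.8, 101.6 and 95.5 TPM in KO gastrocnemius. No KO value came near a Ctrl value, and the means were 30.1 ± 2.64 and 98.95 ± 3.14 TPM. Soleus values were 107, 129 and 167 TPM in Ctrl and 219, 204 and 118 TPM in KO. Soleus KO 1 and KO 2 were above every Ctrl library, and KO 3, the library with the lowest Myh7 and the highest mitochondrial share, lay between Ctrl 1 and Ctrl 2. The log2 difference was 1.69 (SE 0.0791) in gastrocnemius and 0.39 (SE 0.267) in soleus, or 0.67 without soleus KO 3. Whether the state of that library had a part in the soleus value was not tested.

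KO gastrocnemius, at 95.5 to 101.6 TPM of Ppp1r1a, lay under the lowest Ctrl soleus library. Set against the RNA of the PP1 catalytic subunits Ppp1ca, Ppp1cb and Ppp1cc, Ppp1r1a amounted to 7.69 ± 0.732% in Ctrl and 25.3 ± 2.01% in KO gastrocnemius. In soleus it amounted to 31.4 ± 5.54% in Ctrl and 40.4 ± 11.9% in KO, where KO 3 was at 26.9%. On this scale KO gastrocnemius and Ctrl soleus overlapped.

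**Figure D3:**
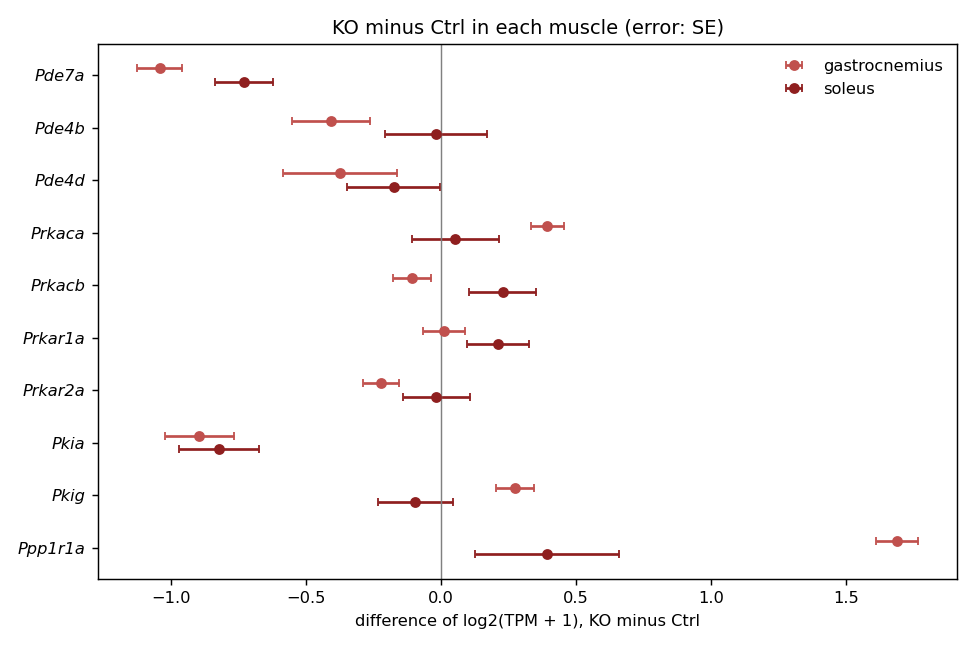
Difference of log2(TPM + 1) between KO and Ctrl for the 10 genes in gastrocnemius and in soleus, with the SE of the fit as the error bar. Pde7a and Pkia lie left of 0 in both muscles, and Ppp1r1a reaches 1.69 in gastrocnemius and 0.39 in soleus.

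In gastrocnemius, 8 of the 10 genes had KO and Ctrl libraries that did not overlap, 3 with KO above (Prkaca, Pkig and Ppp1r1a) and 5 with KO below (Pde7a, Pde4b, Prkacb, Prkar2a and Pkia), beside 37.7% of all tested genes (22.2% above and 15.5% below). In soleus it was 4 of 10, Prkacb and Prkar1a above and Pde7a and Pkia below, beside 16.8% (8.9% and 7.94%). In the limma fits of log2(TPM + 1), with Benjamini-Hochberg adjustment over every gene whose mean reached 1 TPM, 3 of the 10 were called higher in KO gastrocnemius (Prkaca, Pkig and Ppp1r1a) and 2 lower (Pde7a and Pkia), at an adjusted p under 0.05. That threshold called 14.3% of all genes there, 9.32% higher and 4.99% lower, a split that became even under median-ratio scaling of the libraries, with 871 calls each way. In soleus limma called 0 of the 10, beside 0.0741% of all genes, and at an unadjusted p under 0.05 it counted 2, Pde7a and Pkia, both lower, beside 9.07% of all genes. A fit of all 12 libraries together, with 1 estimate of the spread, called those 2 in soleus as well, and it did not call Prkaca or Pkig in gastrocnemius. The call of Pkig was also lost under both rescalings of the libraries, at log2 differences of 0.21 and 0.23, and without any one of the gastrocnemius libraries other than KO 1, at 0.24 to 0.29. Because the list was chosen on this contrast, the counts describe it and support nothing. All 10 passed the filter of 1 TPM in both muscles, and their median log2 difference was -0.16 in gastrocnemius and -0.02 in soleus, beside 0.03 and -0.02 over all genes.

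The difference between the soleus and the gastrocnemius KO effect, taken from the 12-library fit, was -1.30 (SE 0.304) on the log2 scale for Ppp1r1a and 0.07 (SE 0.202) for Pkia. For Pde7a it was 0.31 (SE 0.125), which means a smaller deficit in soleus. None of the 10 was among the 33 genes, 0.273% of those tested, that limma called for this difference, and 4 had an unadjusted p under 0.05, beside 20.7% of all genes. The difference is made from the genotype differences on which the list was chosen, so these counts describe the list only.

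A comparison that the choice of genes did not use is that between the muscles. It asks how the same 10 genes differ between slow and fast muscle within a genotype. It shares its libraries with the genotype comparisons, so its values and p-values are not independent of that choice. In Ctrl animals, 4 of the 10 were higher in soleus (Prkaca, Prkar1a, Pkig and Ppp1r1a) and 3 lower (Pde7a, Pde4b and Pkia), beside 30.4% and 10.4% of all genes. The median over all genes was itself 0.19 in favour of soleus on the log2 scale, so single values are to be read against that shift. Under median-ratio scaling the all-gene calls split into 2278 higher and 2295 lower in soleus.

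Ppp1r1a had the largest muscle difference of the 10 in Ctrl animals, from 30.1 ± 2.64 TPM in gastrocnemius to 134 ± 30.7 TPM in soleus (log2 difference 2.10, SE 0.215, limma adjusted p = 2.14e-05). Prkaca rose from 81.1 ± 1.36 to 138 ± 14.3 TPM (0.75, SE 0.123, limma adjusted p = 0.000596). Pde4b fell by 1.37 (SE 0.180, limma adjusted p = 0.000130), from 27.2 ± 5.11 to 9.91 ± 2.25 TPM. In each of these 3 genes the Ctrl muscles did not overlap.

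Pde7a was lower in Ctrl soleus by a log2 difference of -0.63 (SE 0.0885, limma adjusted p = 0.000227) and Pkia by -0.53 (SE 0.143, limma adjusted p = 0.0120). Prkar1a was higher by 0.40 (SE 0.0898, limma adjusted p = 0.00454) and Pkig by 0.44 (SE 0.106, limma adjusted p = 0.00658). The last 2 calls were lost under median-ratio scaling of the libraries, which removes most of the shared shift (adjusted p = 0.0676 and 0.0587), and Prkar2a, at -0.25 (SE 0.0933, limma adjusted p = 0.0506), was called lower under it (-0.45, limma adjusted p = 0.000695). Prkacb and Pde4d differed by 0.01 (SE 0.0955) and 0.01 (SE 0.208), with limma adjusted p = 0.968 and 0.976.

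In KO animals 4 of the 10 were called higher in soleus (Prkaca, Prkacb, Prkar1a and Ppp1r1a) and 3 lower (Pde7a, Pde4b and Pkia), beside 26.4% and 9.56% of all genes. The all-gene median was 0.13 higher in soleus, and median-ratio scaling split all calls into 2039 higher and 2048 lower. The log2 difference of Ppp1r1a was 0.81 (SE 0.215, limma adjusted p = 0.0122), where Ctrl animals had 2.10. That of Pkig was 0.07 (SE 0.106, limma adjusted p = 0.647), where Ctrl animals had 0.44. The gap between these KO and Ctrl values is the difference of KO effects given above, for which neither gene was called. Prkar1a, at 0.60 (SE 0.0898, limma adjusted p = 0.000387), and Pde4b, at -0.98 (SE 0.180, limma adjusted p = 0.00142), kept their calls without each library in turn and under both rescalings. Prkaca (0.41, limma adjusted p = 0.0218) lost its call without gastrocnemius KO 1 or KO 3 or soleus KO 1 or KO 2 (0.31 to 0.41), and Pkia (-0.46, limma adjusted p = 0.0277) without gastrocnemius KO 1 or KO 3 or soleus KO 1 or KO 3 (-0.43 to -0.35). Pde7a (-0.31, limma adjusted p = 0.0170) and Prkacb (0.34, limma adjusted p = 0.0160) lost theirs without gastrocnemius KO 2, at -0.24 and 0.32. Ppp1r1a lost its call without soleus KO 1, at 0.64. Median-ratio scaling ended the calls of Prkaca and Prkacb (0.26 and 0.20), and rescaling without mitochondrially encoded genes ended those of Pde7a and Pkia (-0.11 and -0.23) and added one for Pkig (0.29).

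**Figure D4:**
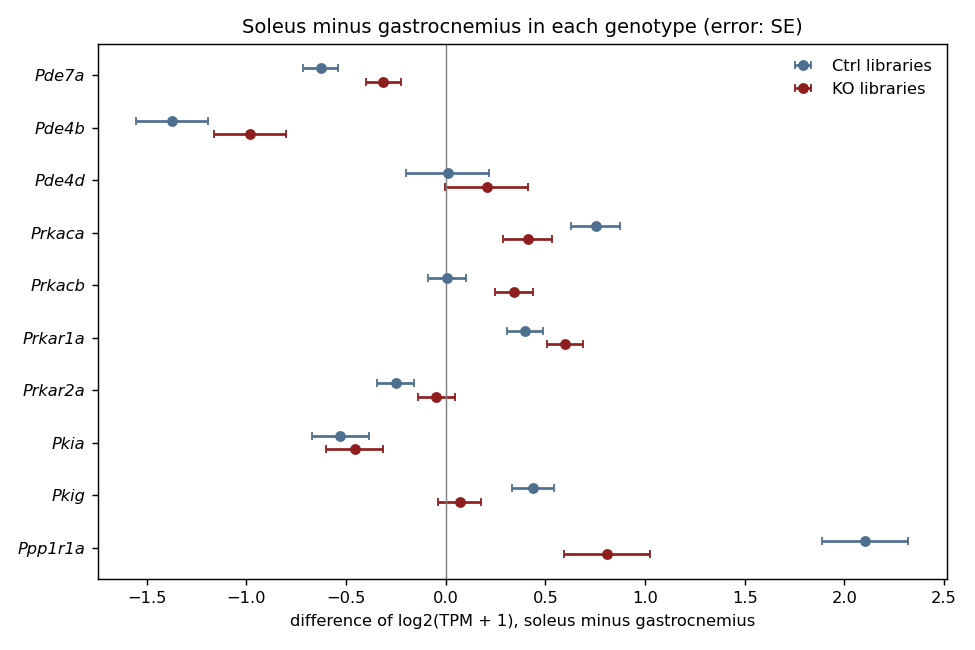
Difference of log2(TPM + 1) between soleus and gastrocnemius for the 10 genes in Ctrl and in KO libraries, with the SE of the 12-library fit as the error bar. Ppp1r1a stands at 2.10 in Ctrl and 0.81 in KO, and Pde4b lies farthest below 0 in both genotypes.

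The wider pathway was followed in 115 further genes grouped by role, a list drawn up with earlier results of these data known. In gastrocnemius 90 of them could be tested, and limma called 3 higher and 5 lower in KO, or 8.89% of those tested beside 14.3% of all genes. Their median log2 difference was 0.01, beside 0.03 over all genes. Median-ratio scaling gave 3 higher and 10 lower, the added falls being Calcrl, Pde7b, Phka1, Phkb and Phkg1. In soleus limma called 0 of 94, and 14 had an unadjusted p under 0.05, beside 9.07% of all genes. The fit of all 12 libraries called Pfkfb1 there, and in gastrocnemius it called Ppp1r3a, Pfkfb1 and Rrad.

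Upstream of PKA, 1 of 12 tested genes of receptor and G protein signalling rose in KO gastrocnemius. It was Gnai2, the inhibitory G protein subunit alpha, which went from 72.2 ± 0.662 to 91.4 ± 4.39 TPM (log2 difference 0.34, limma adjusted p = 0.0159). Of 6 adenylyl cyclases 1 fell, Adcy9, from 6.74 ± 0.840 to 4.45 ± 0.722 TPM (-0.51, limma adjusted p = 0.0411). None of the 8 other phosphodiesterases tested, of the 10 A-kinase anchoring proteins, which tether PKA to sites in the cell, of the 5 other cAMP-binding proteins or of the 2 other PKA subunits passed the test in either direction, Pde7b excepted under median-ratio scaling (-0.40, limma adjusted p = 0.0409). The call of Gnai2 was lost without Ctrl 1, Ctrl 2, KO 2 or KO 3 (0.30 to 0.34), and that of Adcy9 without Ctrl 1, Ctrl 2, KO 1 or KO 2 (-0.52 to -0.41).

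Downstream of PKA, 11 CREB factors and coactivators gave 1 gene that rose and 1 that fell. Crtc2, a coactivator of CREB that enters the nucleus when cAMP rises, went from 10.8 ± 1.00 to 14.8 ± 0.658 TPM (0.42, SE 0.0866, limma adjusted p = 0.0227). Ep300, a histone acetyltransferase recruited by CREB, went from 8.12 ± 0.807 to 5.93 ± 0.512 TPM (-0.40, limma adjusted p = 0.0404). Of 10 tested CREB target genes none passed in either direction. Crtc2 lost its call without Ctrl 1, KO 2 or KO 3 (0.39 to 0.43), and Ep300 lost its call without any one library except Ctrl 3 (-0.44 to -0.33).

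Among 16 tested PP1 catalytic subunits and regulators other than Ppp1r1a, 2 fell and none rose. Ppp1r14c, another phosphatase inhibitor, went from 90.1 ± 3.64 to 55.9 ± 4.61 TPM (-0.68, SE 0.0786, limma adjusted p = 0.00555). Ppp1r3a, the muscle subunit that brings PP1 to glycogen, was at 52.4, 46.1 and 43.5 TPM in Ctrl and 24.6, 24.9 and 29.0 TPM in KO gastrocnemius (-0.83, SE 0.0982, limma adjusted p = 0.00602). In soleus Ppp1r3a was at 16.9, 21.04 and 17.6 TPM in Ctrl and 23.2, 19.9 and 24.4 TPM in KO, with overlap. Both gastrocnemius calls stood without each library in turn. The KO effect on Ppp1r3a differed between the muscles by 1.10 (SE 0.167, limma adjusted p = 0.0353), the 1 gene of 91 with such a call, and that call was lost in 9 of 12 fits without 1 library (1.03 to 1.18), those without soleus Ctrl 2, KO 2 or KO 3 being the exceptions. The 3 catalytic genes gave no call.

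Of 12 genes grouped as PKA substrates of muscle and enzymes related to them, 1 rose and 1 fell in KO gastrocnemius. Membership of that group does not mean that PKA phosphorylates the muscle form of each protein. Rrad, a small GTPase that restrains calcium channels, went from 2.09 ± 0.352 to 18.0 ± 11.8 TPM (2.39, SE 0.471, limma adjusted p = 0.0202), with a KO spread larger than the whole Ctrl level. Pfkfb1, which sets the level of a glycolytic regulator, went from 33.7 ± 2.03 to 23.7 ± 2.63 TPM (-0.50, limma adjusted p = 0.0191). Rrad lost its call without Ctrl 1, Ctrl 2 or KO 2 (2.28 to 2.46), and Pfkfb1 without Ctrl 1, KO 2 or KO 3 (-0.51 to -0.41).

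**Figure D5:**
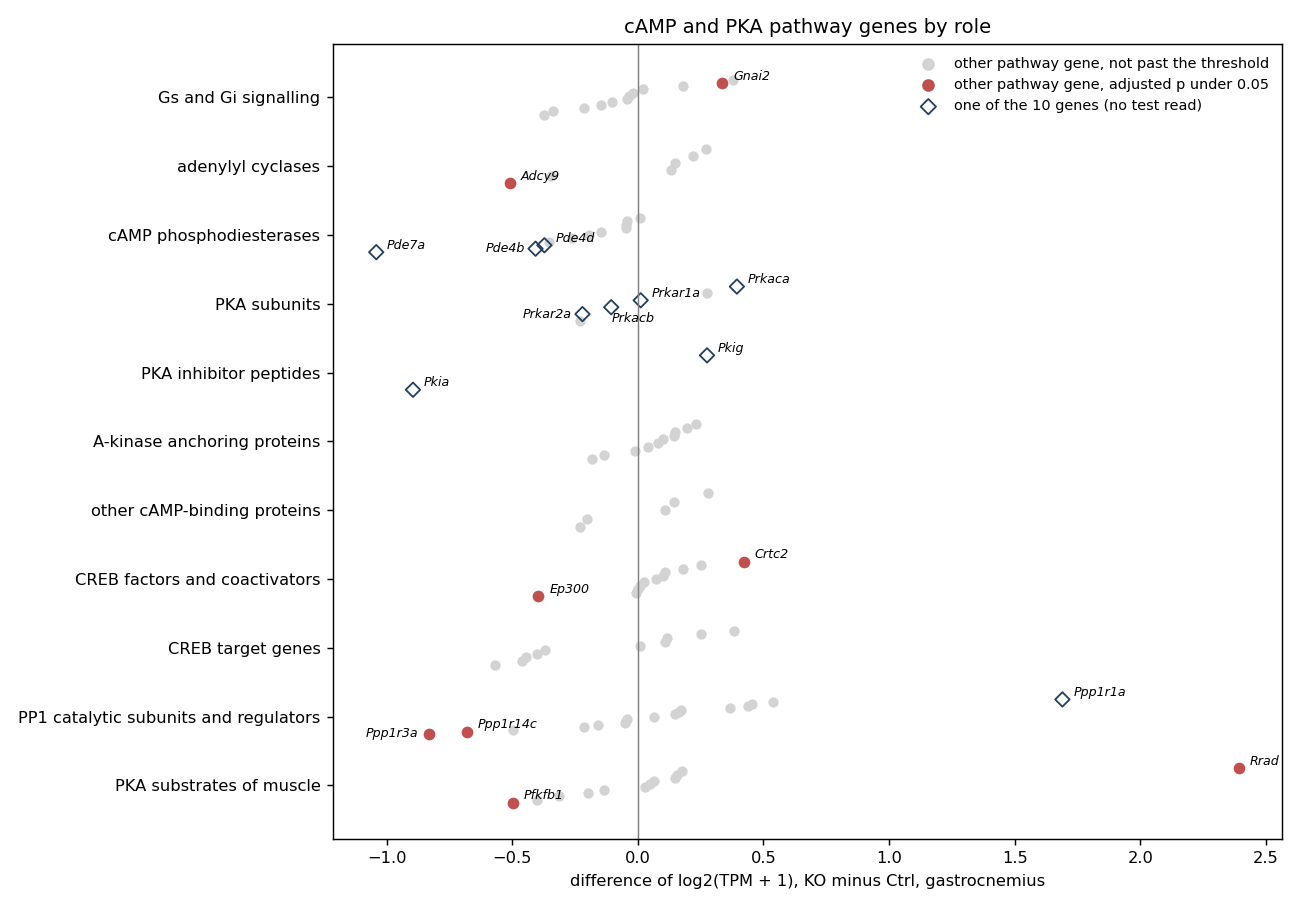
Difference of log2(TPM + 1) between KO and Ctrl gastrocnemius for each tested pathway gene, by role. Filled red points are the 8 genes outside the list of 10 that limma called, grey points were not called, and open diamonds are the 10 genes themselves, which lie between -1.04 for Pde7a and 1.69 for Ppp1r1a.

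Between the Ctrl muscles, 42 of 91 wider pathway genes were higher in soleus and 15 lower, or 46.2% and 16.5%, beside 30.4% and 10.4% of all genes. Akap1, which anchors PKA at mitochondria, was at 28.6 ± 2.64 TPM in gastrocnemius and 72.1 ± 2.31 TPM in soleus, and Crem, a transcription factor of the CREB family, at 16.8 and 37.8 TPM (log2 differences 1.31 and 1.12). Gnai2 was higher by 0.84. The phosphorylase kinase subunits went the other way: Phkg1 was at 429 TPM in gastrocnemius and 72.8 TPM in soleus, Phka1 at 155 and 23.3 TPM, and Phkb at 202 and 42.8 TPM. All 6 held under both rescalings.

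By the root mean square difference of their centred log2 profiles over the 12 libraries, Pkia ranked second of 12090 genes in likeness to Pde7a (0.186, beside a median of 0.605), after Rasgrp3 (0.168) and before Fhit (0.198). The genes most like Pkia were Rasgrp3 (0.173), Fhit (0.175) and Pde7a (0.186). Rasgrp3, an activator of Ras family GTPases, measured 15.2 ± 0.652 TPM in Ctrl gastrocnemius against 8.68 ± 0.555 TPM in the KO, and 10.5 ± 0.0827 TPM in Ctrl soleus against 6.84 ± 0.591 TPM in the KO. Fhit, a diadenosine triphosphate hydrolase, was lower, at 3.00 ± 0.256 and 1.57 ± 0.151 TPM in gastrocnemius and 2.16 ± 0.297 and 0.894 ± 0.210 TPM in soleus. Nearest to Ppp1r1a were Arid5a (0.415), Uchl1 (0.416) and Spata33 (0.426), beside a median of 0.934. These distances grow with a gene's own variation, so they cannot be compared directly between genes. The root mean square of the centred profile was 0.983 for Ppp1r1a, 0.511 for Pde7a and 0.518 for Pkia. All 12 libraries enter both the choice of the genes and this measure.

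Some markers of other cells also differed between genotypes or muscles. The summed level of 8 adipocyte markers was 286 to 336 TPM in Ctrl gastrocnemius and 396 to 601 TPM in the KO, with 1 of 6 tested called higher. Most of that sum was Fabp4, at 261 to 284 TPM in Ctrl and 357 to 406 TPM in KO gastrocnemius. Every other marker of that list overlapped between the genotypes there, so the sum does not measure adipocyte content. Of 8 tested markers each, 2 of Schwann cells and nerve and 1 of smooth muscle and pericytes were called higher there. The Schwann cell sums were 135 to 445 TPM in Ctrl against 147 to 327 TPM in KO, and the smooth muscle sums 212 to 269 against 242 to 282 TPM, both with overlap. The fibroblast sum was 991 to 2072 TPM in Ctrl and 1534 to 4059 TPM in KO, with no call, and leukocyte, endothelial and satellite cell markers also gave none. The satellite cell sums still did not overlap in gastrocnemius, at 77.6 to 81.0 TPM in Ctrl and 83.6 to 92.3 TPM in KO. In soleus no marker was called between genotypes. Only the endothelial sums did not overlap there, at 251 to 299.7 TPM in Ctrl and 230 to 249 TPM in KO. The sum of the 10 fibre markers, of which 2 were called higher, was 140649 to 149386 TPM in Ctrl against 140150 to 149290 TPM in KO. Between the Ctrl muscles, 7 of 8 smooth muscle and pericyte markers and 6 of 8 endothelial markers were higher in soleus, with endothelial sums of 155 to 183 TPM in gastrocnemius and 251 to 299.7 TPM in soleus. No marker was at 0 in every library of a group, and the part of other cells in the results for the 10 genes was not tested.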

How the data were processed

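RNA was sequenced from 12 libraries. Frozen muscle gave RNA (RNAiso, NucleoSpin) for a directional NEBNext kit, per the labels' protocols. The authors deposited TPM in a table per muscle, and each column sums to 1000000. Per the submitters' processing notes, mm10 was the build. Which aligner, quantifier and annotation were used was not given in the sources used here. Depth is unknown.

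IDs without version were matched to GENCODE M21 (34582 of 34866). The 10 genes and all lists were chosen with earlier results of these data known. Genes averaging 1 TPM or more were fitted on log2(TPM + 1) in R 4.3.3 (limma 3.58.1, with data.table at version 1.17.8), with group means, a mean-variance trend, two-sided moderated tests and Benjamini-Hochberg adjustment over all genes, at 0.05. Fold changes on this scale understate low genes. The genotype fits used the 6 libraries of a muscle. Muscle contrasts and differences of KO effects came from 1 fit of all 12, whose tables were scaled separately but hold the same IDs. The script was tested on simulated data. Figures used matplotlib 3.10.9 in Python 3.11.15.

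Named are the 10 genes, up to 3 called pathway genes per role and muscle, up to 3 per direction between Ctrl muscles, up to 3 for the difference of KO effects, and the 3 nearest profiles of Pde7a, Pkia and Ppp1r1a, with predicted genes and Riken clones passed over, all by smallest p or distance. Pfkfb1 in soleus and the genes named by a changed setting were chosen after their values were seen. Alternatives were a pseudocount of 0.1, no filter, a filter at 5 TPM, median-ratio scaling, rescaling without mitochondrially encoded genes, no trend, robust empirical Bayes, a fit of all 12 libraries, a replicate block, and leaving out each library.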

Additional observations from a re-analysis of the deposited data

Results flagged for a closer look

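Ppp1r3a was singled out because its KO effect differed between the muscles by test, with a soleus effect minus gastrocnemius effect of 1.10 on the log2 scale (limma adjusted p = 0.0353). It was lower in KO gastrocnemius, at 26.2 ± 2.47 TPM against 47.3 ± 4.59 TPM in Ctrl, and 22.5 ± 2.35 against 18.5 ± 2.23 TPM in soleus. The soleus groups overlapped, and the call for the difference of effects was lost in 9 of 12 fits without 1 library.

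Prkacb was singled out because all KO libraries were below Ctrl in gastrocnemius and above it in soleus. The difference of effects was 0.34, and the limma test of that difference did not pass the adjusted threshold. Prkacb belongs to a list drawn up on genotype differences in these same libraries, and it was flagged by their order. Its result is therefore a description only. Phkb, a subunit of phosphorylase kinase, showed the same order, from 202 ± 15.8 to 162 ± 12.5 TPM in gastrocnemius and from 42.8 ± 1.58 to 45.9 ± 1.70 TPM in soleus. The difference of effects of Phkb, flagged by the same order, was 0.41, and the test did not pass either (limma adjusted p = 0.137).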

How the results depend on the processing

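In gastrocnemius limma called 1704 genes, against 1113 with no filter, 722 with the replicate block and 524 in the fit of all 12 libraries, and 547 to 1596 without 1 library. Of its calls, 1110 were higher and 594 lower, a split that was 871 and 871 under median-ratio scaling and 748 and 793 without mitochondrially encoded genes. The 8 wider pathway calls became 5 with no filter, 13 under median-ratio scaling, 5 with the replicate block, among them the CREB target Nr4a1, not called without the block (-0.57, limma adjusted p = 0.0398), and 3 in the fit of all 12 libraries, and 2 to 12 without 1 library. In soleus the 9 calls became 0 with no filter, 5 with a filter at 5 TPM, 16 without mitochondrially encoded genes, 0 with the replicate block and 98 in the fit of all 12 libraries, and 0 to 11 without 1 library, and the 0 wider pathway calls became 1. Between KO muscles 4345 calls became 6629 without mitochondrially encoded genes. The 33 calls for the difference of KO effects became 14 at a pseudocount of 0.1, 16 without mitochondrially encoded genes and 3 with the replicate block, and 1 to 308 without 1 library, the most without soleus KO 2. Same-numbered libraries correlated at -0.38 to 0.20 in their deviations from group means, so the replicate block rests on shared numbers only. Of 780 refitted log2 differences of the 10 genes, 709 kept direction and side of the threshold, 31 lost a call, 11 gained one, 29 uncalled values changed sign, and 0 called values reversed. Under median-ratio scaling and without mitochondrially encoded genes Prkar2a was called lower in KO gastrocnemius. The causes were not tested. With TPM only, the error of low values cannot be given.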
